A study of Mus musculus with 2 samples.

Results

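The probes described here are those whose names begin with mouselincRNA on a 1-colour Agilent oligonucleotide array of mouse transcripts. They are non-control probes picked by a rule on the name that uses no measured value, though earlier results of these data were known. They number 691 of 59701 probes with a usable spot. Each name carries a locus number, a + or a - sign read here as the strand sought, and the suffix P1. The 691 probes cover 351 loci: 340 loci have a + and a - probe, 3 have a + probe only and 8 a - probe only. They are separate from the 3457 probes on the same array that are named for single exons of mouse lincRNAs. RNA came from kidneys of male mice, with the left and the right kidneys kept apart, and the groups carry no further genotype or treatment in the labels. The series text was read as 1 pool of 3 left and 1 pool of 3 right kidneys, though its wording leaves the pooling open. Each side was put on 1 array, so the design compares left with right kidney and holds no replicate of either.

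Long intergenic noncoding RNAs (lincRNAs) are transcripts without a long open reading frame that are made from DNA between protein-coding genes. Many were first located by chromatin marks of active promoters and of transcribed gene bodies, which show that a region is transcribed without showing which strand is copied. A pair of probes, 1 for each strand, can ask that question of the RNA. LincRNAs are known in general for lower levels and stronger tissue preference than messenger RNAs.

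The files pair none of these probes with a gene name, a genome position or a sequence, so each is given by its probe name. Each probe was printed as 1 spot per array. The values below are the scanner software's processed signals, which are background-subtracted brightnesses on a linear scale, followed by the error the software estimated for that spot. That error covers the spot and its background and holds no variation between mice, between RNA preparations or between hybridisations. Brightness depends on the sequence of a probe as well as on the amount of RNA, so signals of different probes stand side by side here without folds between them. Of 21 marker genes for kidney and for blood, immune, endothelial, fat and adrenal cells, 0 had a probe with a gene name, so the tissue label was not checked against markers. Both arrays lay on 1 slide scan at different positions, and side and position cannot be told apart.

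Fewer of the mouse lincRNA probes gave signal with kidney RNA than probes in general. Well above background is the software's flag for a spot that clearly exceeds its background. On the left array 214 of the 691 probes carried it, or 31.0% (exact 95% interval 27.5 to 34.6), against 60.4% of all probes. On the right array 262 carried it, or 37.9% (34.3 to 41.7), against 65.5% of all probes. Spots of the 20 probes named as negatives carried the flag in 6.50% (left) and 9.58% (right) of 1200 cases per array. Without the 2 brightest of these probes the shares were 0.741% (0.320 to 1.45) and 1.11% (0.575 to 1.93) of 1080 spots. The + and the - probes were flagged at like rates, with 104 of 343 + probes (30.3%, 25.5 to 35.5) and 110 of 348 - probes (31.6%, 26.8 to 36.8) on the left. On the right the numbers were 124 (36.2%, 31.1 to 41.5) and 138 (39.7%, 34.5 to 45). Intervals cover counting error only, and the strands share loci, so no test was made between them. Exon probes of mouse lincRNAs were flagged more often, at 50.6% (48.9 to 52.2) in left and 56.3% (54.6 to 57.9) in right kidney RNA. Probes named for human lincRNAs stood at 31.1% (28.5 to 33.8) and 36.5% (33.8 to 39.3).

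Of the 214 probes detected with left kidney RNA, 208 were detected with right kidney RNA as well. These 208 are 30.1% of the members, against 59.2% of all probes, and 423 were detected on neither array. Another 54 probes (7.81%) were flagged on the right array alone and 6 (0.868%) on the left alone, where all probes gave 6.26% and 1.14%. For any probe, the lowest flagged signal was 33.2 (left array) and 27.2 (right array). Signals of the 54 right-only probes on the right array ran from 27.4 to 71.2 with a median of 33.4, and 52 of them were under 2 times the lowest flagged signal there. With 1 limit for both arrays, chosen after seeing the data, 27 probes were above it on the right alone and 18 on the left alone. Among all 691 probes, 180 were not significantly positive on either array, and signals that were not were at most 8.03 (left) and 6.16 (right), a floor near the additive error the software gave for the array (7.0 and 5.63).

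**Figure D1:**
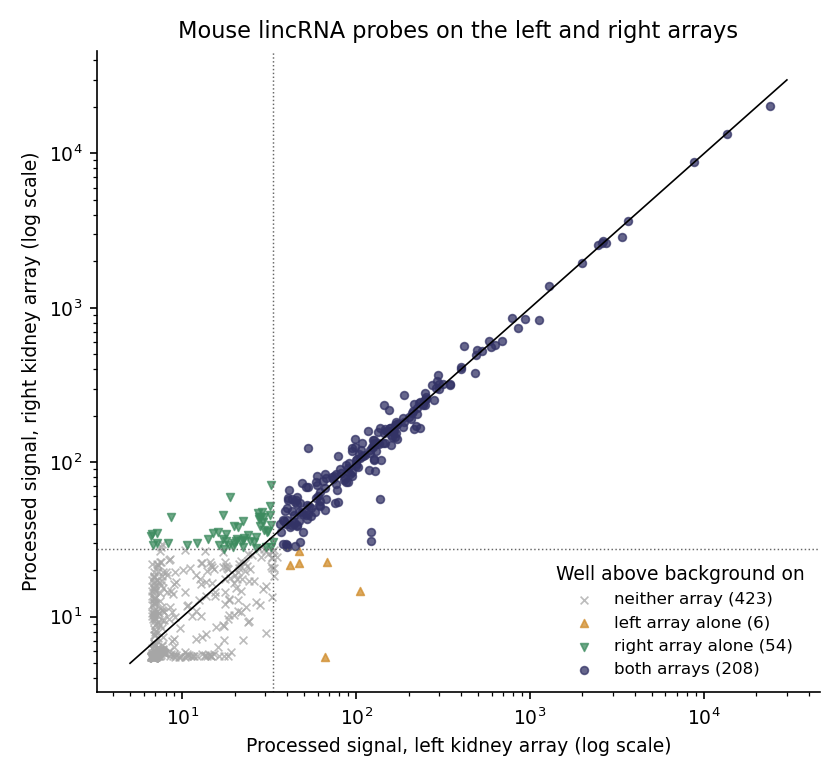
Processed signal of the 691 mouse lincRNA probes on the left (x) and right (y) kidney array, both on log scales. Markers give the arrays on which a probe was well above background, dotted lines the lowest such signal of any probe (33.2 and 27.2), and the solid line equal scaled signal. The 208 probes above background on both arrays follow the line, and the right-only probes lie close to the dotted limits.

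Most of the detected members were dim and a few were bright. Among the 208 probes above background on both arrays, the median signals were 120 (left) and 119 (right), and the 75th percentiles were 212 and 209. The medians were 271 and 270 for all probes above background on both arrays. They were 146 and 151 for lincRNA exons and 90.9 and 93.8 for probes named for human lincRNAs. A signal of 1000 was reached by 12 members with left and 11 with right kidney RNA, and 10000 by 2 with each. Of all 35367 probes above background on both arrays, 10651 (left) and 10507 (right) reached 1000. A signal of 10000 was reached by 3610 and 3506 of them. The array's own 75th percentile over spots of transcript probes was 436.5 (left) and 435.4 (right). On each array 23 of the 208 members were at or above it, against 14718 (left) and 14717 (right) of all 35367 probes above background on both arrays.

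The brightest probe, mouselincRNA0077+_P1, read 23990 ± 2399 with left and 20403 ± 2040 with right kidney RNA. mouselincRNA1188-_P1 followed with 13516 ± 1352 and 13440 ± 1344, and mouselincRNA0161-_P1 with 8804 ± 880 and 8836 ± 884. mouselincRNA1267-_P1 read 3668 ± 367 and 3672 ± 367. mouselincRNA0478+_P1 read 3370 ± 337 (left) and 2889 ± 289 (right), and mouselincRNA0158-_P1 2742 ± 274 and 2621 ± 262. mouselincRNA0305-_P1 (2626 ± 263 and 2691 ± 269) and mouselincRNA1606-_P1 (2579 ± 258 and 2612 ± 261) completed the 8 brightest. All 8 were within 1.2-fold between the sides, as were 73.3% of all probes.

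The opposite strand of these bright loci was mostly not above background, as was the case for members in general. The partner probe mouselincRNA1188+_P1 read 7.10 and 5.52, mouselincRNA0161+_P1 6.97 and 5.54, and mouselincRNA1267+_P1 6.98 and 5.98, all at the floor. The partners at loci 0305 (6.98 and 13.3), 0478 (6.69 and 13.6) and 1606 (7.63 and 6.0) were not well above background on either array. At locus 0158 the + probe was above background on the left array alone, with 46.7 against 22.1 on the right. At locus 0077 the - probe was above background on both, at 126 ± 14.6 (left) and 133 ± 14.5 (right). Thus 2 of the 8 partners were above background with left and 1 with right kidney RNA. Among the 20 brightest probes that have a partner, the corresponding numbers were 6 and 5. Over all members, 31.0% (left) and 37.9% (right) of probes were well above background.

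Most loci with signal well above background showed it on a single strand. With the more lenient flag for significantly positive spots this majority was lost on the right array, with 71 loci on the + strand alone, 78 on the - strand alone and 159 on both, and it shrank on the left, with 73, 83 and 132. Over the 340 paired loci, the left array had 73 with the + probe alone well above background, 79 with the - probe alone, 30 with both and 158 with neither. The right array had 78, 92, 45 and 125. Of the loci with any signal, 152 of 182 used a single strand in left kidney (83.5%, 77.3 to 88.6) and 170 of 215 in right kidney (79.1%, 73.0 to 84.3). The intervals of the + and the - share overlapped, at 21.5% (17.2 to 26.2) and 23.2% (18.8 to 28.1) of the 340 loci for left kidney. For exons of mouse lincRNAs that share was 67.9% (65.3 to 70.4) of 1323 in left and 61.7% (59.1 to 64.2) of 1406 in right kidney, and for loci named for human lincRNAs 77.3% (72.3 to 81.9) of 309 and 73.9% (68.9 to 78.4) of 352. Exons were also detected more often in all, as given above, and the part of this in the difference from the exon set was not tested.

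Signal on the - strand was about as frequent at loci with signal on the + strand as at loci without, with overlapping intervals. On the left, the - probe was above background at 30 of 103 loci whose + probe was (29.1%, 20.6 to 38.9) and at 79 of 237 loci whose + probe was not (33.3%, 27.4 to 39.7). On the right the shares were 45 of 123 (36.6%, 28.1 to 45.7) and 92 of 217 (42.4%, 35.7 to 49.3). Loci named for human lincRNAs gave 35.9% (29.2 to 43.1) and 27.6% (23.3 to 32.2) on the left, the reverse order.

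**Figure D2:**
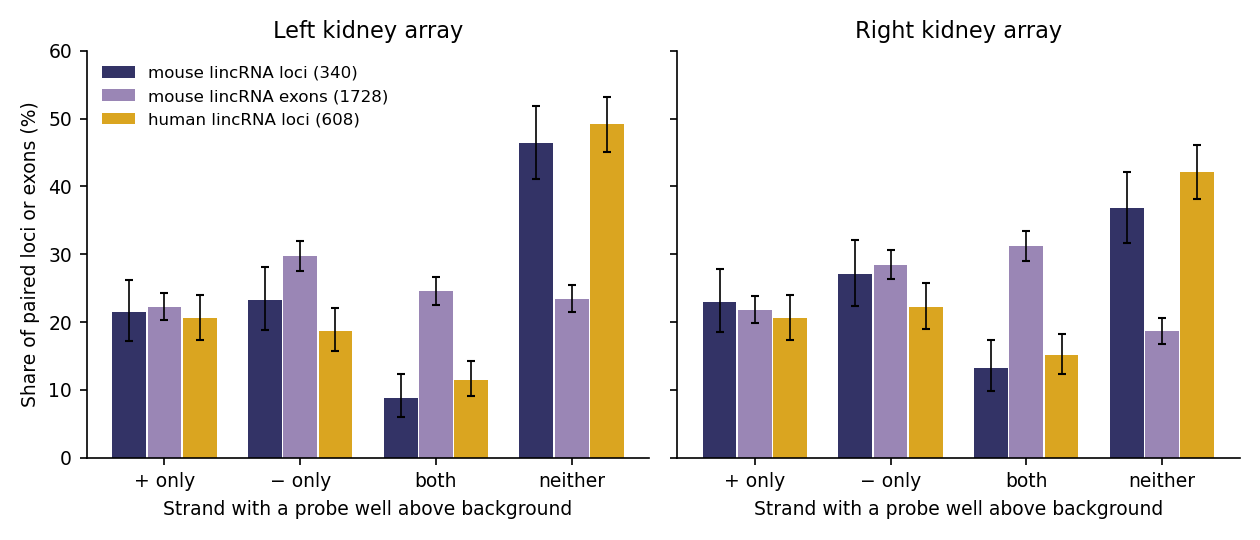
Share of paired loci or exons (y, percent) by the strand whose probe was well above background (x), on the left and right kidney arrays, with exact 95% intervals that cover counting error only. Among 340 mouse lincRNA loci, 8.82% (left) and 13.2% (right) had signal on both strands, against 24.6% and 31.2% of 1728 lincRNA exons.

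The strand with signal was mostly the same in left and right kidney, as it was for lincRNA exons and for loci named for human lincRNAs. Of the 340 loci, 282 (82.9%, 78.5 to 86.8) fell in the same class on both arrays: 62 with the + probe alone, 71 with the - probe alone, 28 with both and 121 with neither. Among 178 loci with signal on both arrays, 161 (90.4%, 85.1 to 94.3) kept their class. For exons these shares were 83.6% (81.8 to 85.3) and 87.4% (85.5 to 89.2). Loci named for human lincRNAs gave 84.0% (80.9 to 86.9) and 90.5% (86.6 to 93.6). A single strand was seen on both arrays at 133 mouse lincRNA loci, and 0 of these used the other strand on the other side, which allows a share of up to 2.74% (exact 95% interval). Exons gave 0 of 745 and loci named for human lincRNAs 1 of 203. A change to the other strand needs 1 probe flagged on the left alone and its partner on the right alone. Only 6 members were flagged on the left alone and 54 on the right alone, so few changes could have been seen. With the more lenient flag for significantly positive spots, 9 mouse lincRNA loci did change to the other strand, where 38 and 85 members were flagged on 1 array alone. The 58 of the 340 loci that changed class were mostly gains on the right array: 16 went from neither to + alone, 19 from neither to - alone, 9 from + alone to both, 6 from - alone to both and 2 from neither to both. In the other direction, 2 lost the + probe alone, 2 the - probe alone, and 2 went from both to the - probe alone. The right array flagged more probes of every set compared here, as given above. The lowest flagged signal was also lower there, at 27.2 against 33.2. With the 95th percentile of negative spots as the limit, 207 members were detected in left and 203 in right kidney RNA. Each other limit tried gave more members in right kidney RNA, with 219 (left) and 228 (right) under 1 limit for both arrays.

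Among the 11 loci with a single probe, 2 were above background on both arrays and 9 on neither. mouselincRNA1210-_P1 read 316 (left) and 322 (right), and mouselincRNA0959+_P1 51.4 and 69.0. The other 9 read 7.19 to 21.8 (left) and 5.62 to 22.8 (right).

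Signal on both strands and both sides was found at 28 loci, mostly at moderate brightness. Their + probes had medians of 110 (left) and 113 (right), and their - probes 136 and 124. Ordered by the dimmer of the pair, locus 0706 came first, with mouselincRNA0706+_P1 at 484 ± 48.9 (left) and 380 ± 38.4 (right) and mouselincRNA0706-_P1 at 246 ± 25.5 and 251 ± 25.7. At locus 0522 the + probe read 153 and 160 and the - probe 347 and 322. At locus 0538 the + probe read 1284 and 1387 and the - probe 158 and 129.

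At locus 1512 the + probe read 233 ± 24.3 (left) and 166 ± 17.6 (right), while the - probe stood at 134 and 133. At locus 0939 the + probe read 241 and 237 and the - probe 130 and 119. Locus 0077, described above, is also among the 6 loci with the brightest dimmer strand. Within the 28 loci, left minus right differences of the + probe and the - probe ran in the same direction at 12 loci and in opposite directions at 16, and Pearson's r across loci was 0.04 (Spearman's rho 0.03), where the points share both arrays. At 12 loci both probes were within 1.2-fold between the sides.

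**Figure D3:**
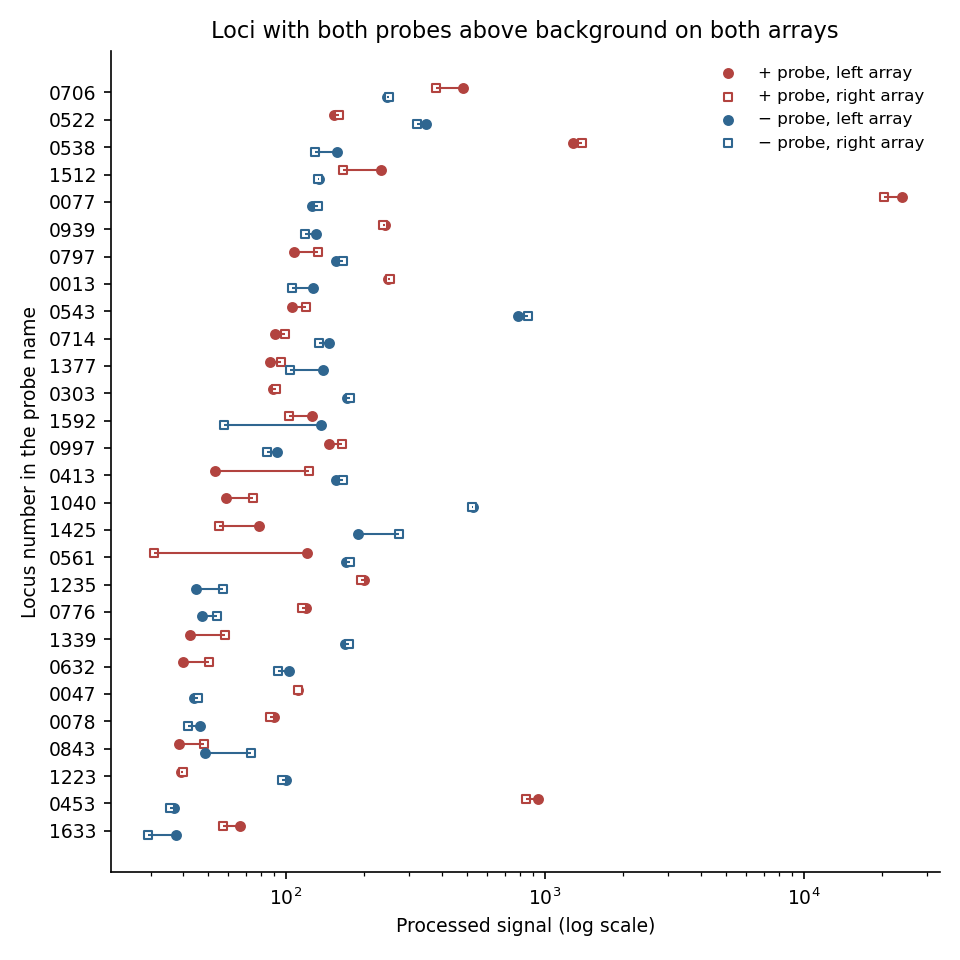
Processed signal (x, log scale) of the + and - probes on the left and right kidney arrays at the 28 loci (y) whose 2 probes were well above background on both arrays, ordered by the dimmer probe. Long bars mark the probes at least 2-fold apart between sides, mouselincRNA0561+_P1, mouselincRNA0413+_P1 and mouselincRNA1592-_P1. Their partners, which were not picked for a difference, have shorter bars.

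Left and right kidneys gave nearly the same signal at most of these loci. Differences are log2 processed signal after division by each array's 75th percentile, left minus right, over the 208 probes above background on both arrays. Their median was -0.01 (SD 0.33), beside 0.01 (SD 0.31) over all 35367 such probes. Higher on the left were 98 probes and on the right 110, and with arrays scaled to their medians the split was 124 to 84. Within 1.2-fold lay 150 probes (72.1%, all probes 73.3%), 9 were at least 1.5-fold apart (4.33%, all probes 5.11%), and 2 at least 3-fold (all probes 0.274%). Across these 208 members scaled log2 signals of left and right gave a Pearson's r of 0.979 and a Spearman's rho of 0.956, over points that share the pools, arrays and background. All probes gave 0.994 and 0.988, lincRNA exons 0.989 and 0.972, and probes named for human lincRNAs 0.982 and 0.952.

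Agreement was closer for brighter members. The 208 members were put in 4 groups of 52 by mean signal. In the dimmest group, from 33.3 to 60.6, the robust SD of the difference (from the median absolute deviation) was 0.32. It was 0.24 in the next group, 0.15 in the next and 0.11 in the brightest, above 200.4. Other probes in the same ranges had robust SDs of 0.35, 0.28, 0.22 and 0.19. From dimmest to brightest group, Pearson's r of left and right was 0.40, 0.09, 0.60 and 0.995. Other probes in these ranges gave 0.19, 0.31, 0.36 and 0.99. The r over all 208 members thus reflects mostly the spread of brightness between members. Within the brightest group 47 of 52 members (90.4%) lay within 1.2-fold, against 14081 of 17722 other probes in that range (79.5%). The combined software error of a difference had a median of 0.23, and 53 of the 208 members (25.5%) differed by more than their own, against 31% of all probes. Past 2 times that error lay 12 members (5.77%), against 7.82% of all probes.

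**Figure D4:**
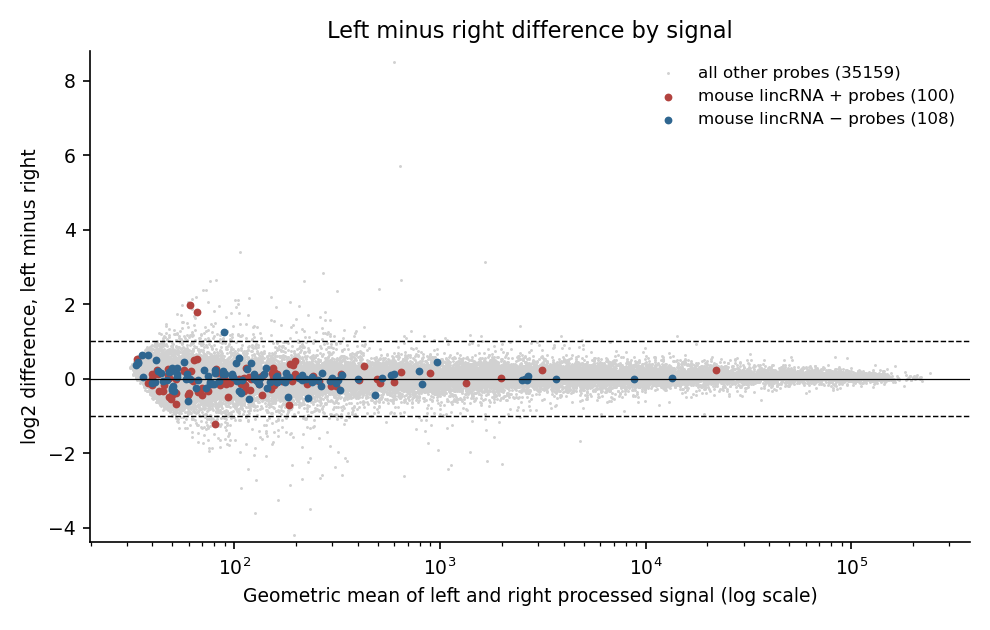
Left minus right log2 difference (y) against the geometric mean of left and right processed signal (x, log scale) for probes well above background on both arrays. Dashed lines mark 2-fold. Of the 208 mouse lincRNA probes 4 lie past them, all in the second dimmest of the 4 brightness groups (60.6 to 113), where 141 of 5903 other probes are also past 2-fold.

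At least 2-fold apart were 4 of the 208 probes, 3 higher on the left and 1 on the right. That is 1.92% (exact 95% interval 0.526 to 4.85), against 1.08% of all probes (0.537% with the left and 0.543% with the right higher). No p-value exists for such a count with 1 array per side. mouselincRNA0561+_P1 read 121 ± 13.9 (left) and 31.0 ± 6.39 (right), a log2 difference of 1.96 ± 0.34 (software error). mouselincRNA0713+_P1 read 122 ± 14.1 and 35.3 ± 6.55 (1.79 ± 0.32), and mouselincRNA1592-_P1 137 ± 15.3 and 57.6 ± 8.02 (1.25 ± 0.26). mouselincRNA0413+_P1 was higher on the right, at 53.0 ± 9.31 (left) and 123 ± 13.8 (right), a difference of -1.22 ± 0.30. The members nearest outside the limit were mouselincRNA1341-_P1 at 0.63 and mouselincRNA0118+_P1 at -0.70. With this scaling a gap thus separated the 4 from the rest of the 208.

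The partner probe at 3 of these 4 loci was above background on both arrays and differed by at most 0.29 on the log2 scale. The 4 probes were picked for their large differences and the partners were not, so smaller differences of the partners follow largely from the picking. mouselincRNA0561-_P1 read 171 (left) and 177 (right), and mouselincRNA0413-_P1 157 and 166. mouselincRNA1592+_P1 read 126 and 103, a difference of 0.29. At locus 0713 the - probe was at the floor on both, at 6.94 and 5.68. None of the 28 loci with both strands measured had 2 probes past 2-fold, where few probes were past it at all.

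**Figure D5:**
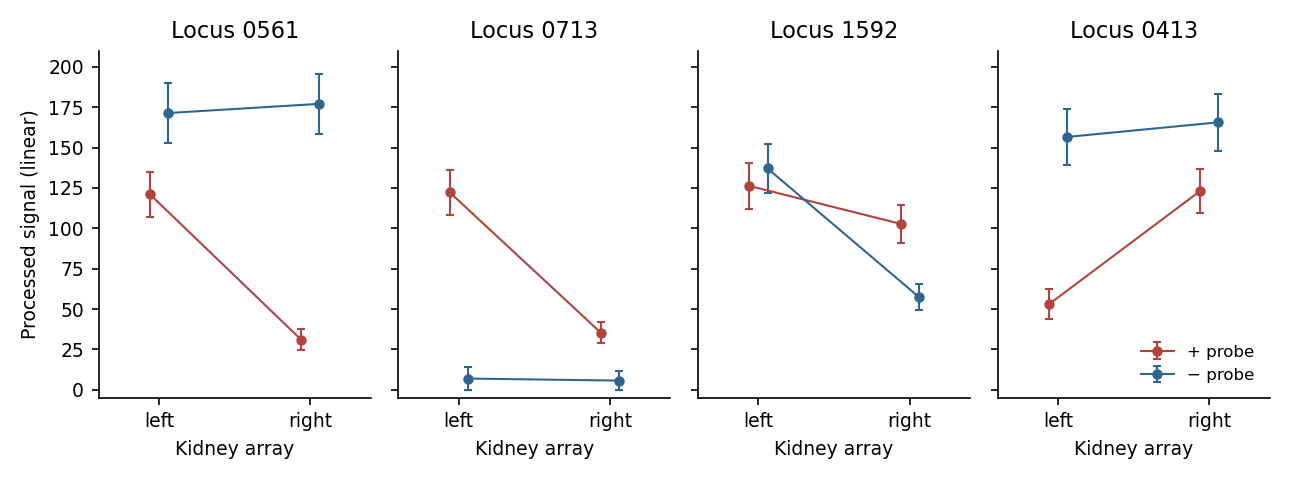
Processed signal (y, linear) of the + and - probes on the left and right kidney arrays (x) at the 4 loci with a probe at least 2-fold apart, with bars for the scanner software's error of 1 spot. At each locus 1 probe was picked for differing between arrays by 2-fold or more. Its partner differs by at most 0.29 on the log2 scale or, at locus 0713, lies at the floor.

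The place of these spots on the array moved with part of the result. The spots of mouselincRNA0561+_P1 and mouselincRNA1592-_P1, both higher on the left, are direct neighbours, 36.7 micrometres apart. The 6 nearest other probes had median differences of 0.06 and 0.31. Around mouselincRNA0413+_P1 the 6 nearest probes had a median of -1.81, larger in size than its own difference, and with the median of the 18 nearest taken off it stood at -0.83, under 2-fold. Around mouselincRNA0713+_P1 the 6 nearest had a median of 0.30. What part position had in the differences was not tested further. With normexp background correction the 4 stood at 0.81, 0.80, 0.59 and -0.41, in the order named above. No member above background on both arrays was then 2-fold apart, and mouselincRNA0118+_P1, at -0.45, was past mouselincRNA0413+_P1. Normexp starts from the median spot and its local background, not from the processed signal. It also adds an offset of 50, which shrinks dim differences by construction. In the same order the median spots read 222, 234, 246 and 163 (left) and 131, 143, 167 and 207 (right). Local backgrounds were 51, 45, 49 and 39 (left) and 41, 41.5, 42 and 37 (right). What part the offset and the background each had was not tested.

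Smaller differences were spread over both strands. Higher on the left were mouselincRNA1341-_P1 (47.7 ± 8.44 on the left, 30.6 ± 6.39 on the right) and mouselincRNA0813-_P1 (44.6 ± 8.41 and 28.7 ± 6.37), 1.55-fold each. mouselincRNA0440-_P1 read 128 ± 14.5 and 87.5 ± 10.3, 1.46-fold higher on the left and past 2 times its software error. mouselincRNA1498+_P1 was 1.43-fold higher on the left at 40.1 and 28.0. On the right, mouselincRNA0118+_P1 read 235 ± 24.2 against 145 ± 16.2 on the left, 1.63-fold higher and over 2 times its error. mouselincRNA1538+_P1 (41.1 on the left, 66.1 on the right), mouselincRNA0843-_P1 (48.5 and 73.3) and mouselincRNA0288-_P1 (97.8 and 142) were 1.61-fold, 1.51-fold and 1.46-fold higher on the right. With the median of the 18 nearest probes taken off, the log2 difference of mouselincRNA0288-_P1 went from -0.55 to -0.22, and its 6 nearest probes had a median of -0.25. mouselincRNA0166+_P1 (40.7 and 59.0) and mouselincRNA1231+_P1 (40.4 and 56.8) followed at 1.45-fold and 1.41-fold. Other probes within 0.25 log2 of the brightness of these 10 members had robust SDs between 0.21 and 0.36, and 6 of the 10 differences lay within 2 such SDs.

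Locus 1425 had probes that went opposite ways. mouselincRNA1425+_P1 read 78.9 ± 10.7 (left) and 55.1 ± 8.05 (right), a difference of 0.52 ± 0.29 (software error). mouselincRNA1425-_P1 read 189 ± 20.2 (left) and 274 ± 27.9 (right), a difference of -0.54 ± 0.21. With normexp these were 0.25 and -0.32, and with the 18 nearest probes taken off 0.52 and -0.40.

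Where a probe was above background on 1 array alone, its difference is given as a lower bound that holds for the processed signals alone. It leaves out the software error of the spots and the choice of background correction. The bound sets the brighter signal against the higher of the lowest flagged signal on the other array and the probe's own signal there, after scaling. mouselincRNA1514+_P1 was at least 3.87-fold higher on the left, with 106 ± 12.6 against 14.6 ± 5.81 on the right. mouselincRNA1480+_P1 (67.9 ± 9.77 and 22.5 ± 6.05) was at least 2.49-fold and mouselincRNA1596-_P1 (66.3 ± 9.59 and 5.50 ± 5.52) at least 2.43-fold higher on the left. Their spots before background subtraction read 214, 182 and 171 (left) and 124, 129 and 97.0 (right). The local backgrounds were 61, 37 and 50 (left) and 39, 35 and 46 (right). On the right, mouselincRNA0892-_P1 was at least 2.15-fold higher (71.2 ± 8.97 against 32.5 ± 7.67), mouselincRNA0757+_P1 at least 1.78-fold (59.1 against 18.7) and mouselincRNA0640-_P1 at least 1.56-fold (51.9 against 32.1). With normexp, which uses the local background and whose offset shrinks dim differences, the named left-only probes stood at 0.75, 0.55 and 1.03 on the log2 scale. The named right-only probes stood at -0.42, -0.31 and -0.25. All of these differences were smaller in size than the bounds, so the bounds did not hold under that correction. Of the 6 left-only probes 3 had a bound of 2 or more, and of the 54 right-only probes 1 had. A bound above 1 was found for 6 left-only and 27 right-only probes. Among the right-only probes 49 had a significantly positive signal on the left, and among the left-only probes 5 had 1 on the right. The partner probe of each of these 6 named members was not well above background on either array.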

How the data were processed

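Kidney RNA was depleted of ribosomal RNA and copied by random priming into labelled cRNA over the full transcript length, per the labels' protocols; whether the labelling keeps strand is not given in the sources used here. Agilent Feature Extraction 11.0.1.1 read the images, per the submitters' processing notes. Per the file headers, each deposited intensity has the background and a spatial trend taken off on its own array, the arrays were not normalized to one another, and flags of 0 or 1 mark spots well above background. The table the authors deposited equals the processed intensity in all 62513 rows of each array (relative tolerance 1e-05).

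Here signals were divided by the 75th percentile of their array and put on a log2 scale. Among the members, 0 spots had an outlier or saturation flag. With 1 array per side no p-value was computed, and the number of arrays limits the precision. Shares have exact (Clopper-Pearson) 95% intervals. The probes, lists and rules were chosen with earlier results of these data known. Probes named are the 8 brightest, the 8 largest differences in each direction that keep their sign under normexp and quantile normalization, the 6 loci with the brightest dimmer strand, up to 3 per side detected on 1 array, and those next to the 2-fold limit. Others were named after their values were seen: the 2 loci with a single probe above background, and partner probes. Normexp used the median spot signal and median local background. The software was Python 3.11.15 and limma 3.58.1 under R 4.3.3, and the counting steps were tested on simulated data.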

Additional observations from a re-analysis of the deposited data

How the results depend on the processing

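The number of detected members depends on the limit. With the flag for significantly positive spots, 426 probes were detected on the left, 473 on the right, 388 on both, 38 on the left alone and 85 on the right alone. The left and right counts are 61.6% and 68.5% of the members, against 81.4% and 85.5% of all probes. Both strands then had signal at 132 loci (left) and 159 (right), neither at 52 and 32, and 9 loci used the other single strand. At 4 times the dimmest probe above background, the counts were 90 on the left, 111 on the right, 88 on both, 2 and 23 on 1 side alone. The left and right shares were 13.0% and 16.1% of the members, against 38.9% and 42.3% of all probes. The loci with + alone, - alone, both and neither were then 37, 44, 4 and 255 on the left and 45, 47, 9 and 239 on the right. At the 95th percentile of negative spots, 20 probes were detected on the left alone, 16 on the right alone, and 29 loci had both strands on the right. With 18 of the 20 negative probes, 26 were on the left alone. Under the common limit, added after seeing the data, 18 were on the left alone and 27 on the right alone. The number of loci in the same strand class stayed between 233 and 315 of 340. Under each of these limits except the flag for significantly positive spots, 0 loci changed to the other single strand (strands were not counted with 18 negative probes). That flag also gave the most left-only probes, 38, and each such change needs a left-only probe.

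The 4 probes past 2-fold were 0 with normexp, which uses the local background and whose offset shrinks dim differences by construction. They were 0 of 88 with the filter at 4 times the dimmest probe, 87 of 691 with no filter, 9 at 1.5-fold and 2 at 3-fold. Of all probes, 0.288% were past 2-fold with normexp, 0.455% with that filter and 8.83% with no filter. At 1.5-fold and 3-fold the shares of all probes were 5.11% and 0.274%. The member count stayed at 4 under the scalings tried, with 1.08% to 1.17% of all probes. It was 3 after correction for position, with 0.987% of all probes. The median difference moved from -0.01 to 0.037 (median scaling), -0.055 (75th percentile over probes above background), 0.016 (quantile), 0.033 (cyclic loess) and -0.031 (18 nearest probes), so its sign is not settled. With no filter it was 0.135. That set holds 423 members well above background on neither array, and the floors of the arrays differ (near 7.0 on the left and 5.63 on the right). Of 245 values of the named probes above background on both arrays, 22 changed sign, in probes no further than 0.10 from 0 in the main setting, and 16 moved past the probe's own software error, 13 with normexp and 3 after correction for position. Signal over background limits what can be read for the dimmest members: in the dimmest 52, up to a signal of 60.6, the software error of a difference had a median of 0.35. No paired analysis was possible because each side has 1 array.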
